A study of Drosophila melanogaster with 38 samples.

Results

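The early response to a change of diet was read from 12 of the 38 arrays in the series, the 6 arrays of switched flies (SF) and the 6 of control flies (CF) collected 2, 4, 6, 8, 12 and 18 hours after the switch. Members were taken by their titles and paired by hour. All flies were wild-type Canton-S females, 40 days old at the switch, which had shared vials of 25 males and 25 females. CF flies stayed on control food, in which sucrose and autolysed yeast were each at 150 g/L in agar at 20 g/L. SF flies had eaten the same food until day 40 and then received restricted food, in which both nutrients were lowered to 50 g/L and the agar was the same. A further cohort (RF), kept on restricted food throughout, gave 6 arrays at the same hours that are used only for values set beside those of SF. Each array held RNA of head and thorax pooled from at least 75 females, and each cohort had 1 array at each hour, so the 6 pairs are 6 hours and not 6 repeats of 1 condition. The p values below therefore measure the spread over hours, which includes any real change with time.

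A diluted diet holds less sugar and less yeast in the same volume of food, and how much the flies ate was not measured here. Dietary sugar acts in the fly through the Mondo transcription factor and the factors it controls, among them sugarbabe, which favour the enzymes that turn sugar into fat. Insulin-like peptides made in the brain carry the nutritional state to the fat body, a tissue that combines roles of liver and adipose tissue and that also secretes storage and yolk proteins.

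Values are log2 expression scores, and a difference is SF minus CF at the same hour, so that 1 is a ratio of 2. Male-specific transcripts had mean scores of 3.32 to 3.62 on the 18 arrays of the early hours. Eggshell transcripts, which are made in the ovary and not in head or thorax, were abundant on every one of these arrays, with a mean over 13 genes of 9.95 to 12.8. Neuron, photoreceptor and flight muscle genes had means of 7.45 to 9.01, 9.85 to 11.5 and 9.31 to 10.8.

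The SF arrays at 6 and 8 hours stood apart from the CF arrays and from the other SF arrays in several marker lists. Their eggshell means were 12.1 and 12.8, against 11.1 and 10.9 on the paired CF arrays. Their means for neuron genes (8.01 and 7.45), photoreceptor genes (10.6 and 9.85), flight muscle genes (9.70 and 9.31) and haemocyte genes (8.02 and 7.73) lay below those of all 6 CF arrays and of the other 4 SF arrays. The RF array at 12 hours had a pattern of the same kind, with an eggshell mean of 12.3 and a neuron mean of 7.82, so it was not limited to SF. The CF array at 2 hours carried the highest eggshell mean among CF arrays, 12.6. The part of tissue content in the differences described here was not tested, and fewer cells of a type cannot be told apart from less RNA per cell.

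**Figure D1:**
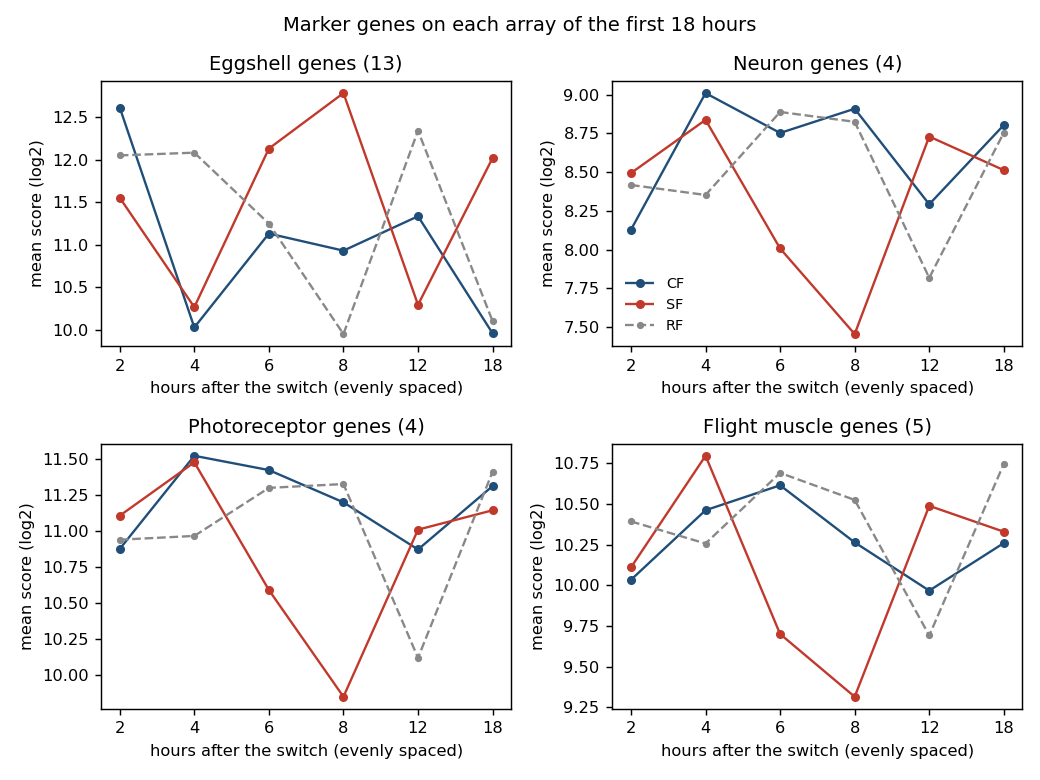
Mean log2 score of marker genes (vertical axes) on each array of the CF, SF and RF cohorts at 2 to 18 hours (horizontal axes, hours evenly spaced), with 1 point per array. The SF points at 6 and 8 hours lie low for neuron, photoreceptor and flight muscle genes, and the SF eggshell mean reaches 12.8 at 8 hours.

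Across 9420 probe sets the size of the differences depended strongly on the hour. The SD of the difference over probe sets was 0.359 at 2 hours, 0.277 at 4 hours, 0.577 at 6 hours, 0.749 at 8 hours, 0.254 at 12 hours and 0.424 at 18 hours. Differences of at least 1 in size made up 8.03% of probe sets at 6 hours and 17.2% at 8 hours, but 0.817% to 2.73% at the other hours. RF minus CF, which shares the CF arrays, had SDs of 0.316 to 0.400 at the same hours. SF minus CF at 24 to 72 hours had SDs of 0.249 to 0.325. The wide spread at 6 and 8 hours was thus seen in SF and not in RF against the same CF arrays.

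The hours also differed in direction. Over probe sets, which are not independent, the differences at 6 and 8 hours had a correlation of 0.72, and those at 8 and 18 hours one of 0.70. The differences at 2 and 8 hours ran against each other, with a correlation of -0.74. For the eggshell list, the mean of SF minus CF was -1.06 at 2 hours, 0.24 at 4 hours, 1.0 at 6 hours, 1.85 at 8 hours, -1.04 at 12 hours and 2.06 at 18 hours.

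**Figure D2:**
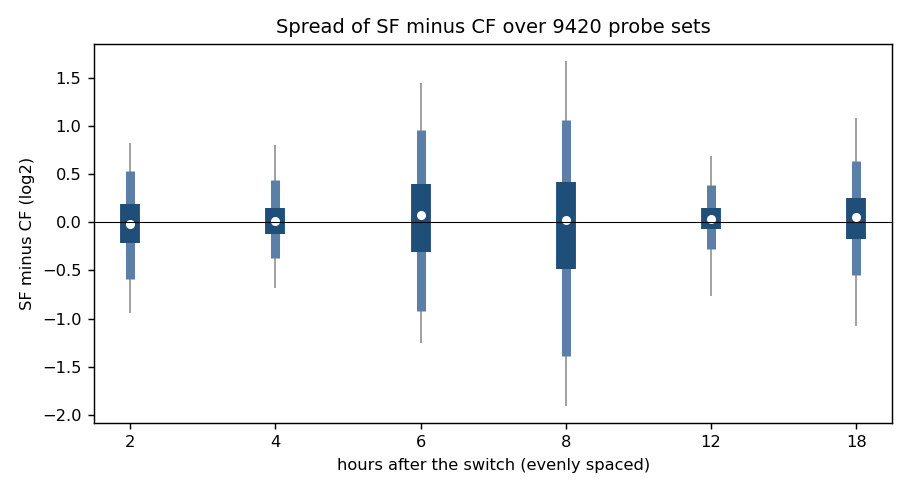
Distribution of SF minus CF (vertical axis, log2) over 9420 probe sets at each hour (horizontal axis, evenly spaced). White points are medians, dark bars hold the 25th to 75th percentile, light bars the 5th to 95th and lines the 1st to 99th, and the bars are widest at 6 and 8 hours, where the SD was 0.577 and 0.749.

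No probe set passed the test over the 6 pairs. By limma with Benjamini-Hochberg adjustment, 0 of 9420 (0%) were called at an adjusted p of 0.05, and the smallest adjusted p was 0.586. At an unadjusted p under 0.05, 240 probe sets were higher in SF (2.55%) and 247 were lower (2.62%), 5.17% in all. This count moved with single hours, to 1106 higher and 518 lower without 2 hours and to 73 higher and 107 lower without 6 hours. Centring every array on its own median made this split 329 higher and 157 lower. The paired test of the study's methods, run on the same values, also called 0 (504 at an unadjusted p under 0.05). At 24 to 72 hours the same limma test called 184 probe sets (1.95%), 94 higher (0.998%) and 90 lower (0.955%). RF minus CF at 2 to 18 hours had 67 calls (0.711%) over 6 pairs and 929 probe sets at an unadjusted p under 0.05 (9.86%). Without 6 and 8 hours, over 4 pairs, it had 0 calls and 760 at an unadjusted p under 0.05. Because nothing passed, all SF minus CF values at 2 to 18 hours that follow are measurements below the threshold, and every adjusted p is from limma.

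Much of what led this comparison rested on the 6 and 8 hour arrays in size, though not in sign. Of the 240 probe sets higher at an unadjusted p under 0.05, all 240 kept their sign without those 2 hours, but 38 kept an unadjusted p under 0.05. Of the 247 lower ones, 247 kept their sign and 58 the p. The median difference of these probe sets went from 0.30 to 0.18 for those higher and from -0.40 to -0.23 for those lower. Since these probe sets were picked on all 6 hours, the kept signs are a description only. With 4 pairs the test also has less power.

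Differences of 1 sign at all 6 hours were found in 190 probe sets higher in SF (2.02%) and 143 lower (1.52%). Every SF array scored above every CF array in 13 probe sets (0.138%) and below in 14 (0.149%). The leading genes described next have 1 sign at all 6 hours and an unadjusted p under 0.01, which held for 12 probe sets higher and 34 lower. They were thus chosen for these features. Each had an adjusted p of 0.586. Tsf1 and smp-30 had 2 tested probe sets each, and kumpel had 4. The values given for these 3 genes are from 1 probe set chosen by this rule, and their other probe sets are not described.

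Sugarbabe (sug), which encodes a zinc finger transcription factor induced by dietary sugar, had nearly the same difference at every hour. Its CF scores ran from 9.97 to 10.48 with a median of 10.20, and its SF scores from 9.59 to 9.94 with a median of 9.74. The groups did not overlap. The differences were -0.48, -0.54, -0.51, -0.41, -0.38 and -0.38 from 2 to 18 hours, with a mean of -0.45 (SE 0.06). The difference was thus present on the first pair, 2 hours after the switch, and without 6 and 8 hours the mean was also -0.45 (SE 0.08). RF minus CF at these hours was -0.29 (adjusted p = 0.214), and SF minus CF at 24 to 72 hours was -0.17 (adjusted p = 0.467).

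Malic enzyme (Men), which supplies NADPH for lipid synthesis, differed by -0.20 at 2 hours and -0.24 at 4 hours, then by -0.58 to -0.81 at the later hours. CF scores ran from 12.66 to 13.06 with a median of 12.89, and SF scores from 12.05 to 12.82 with a median of 12.26, so the groups overlapped. The mean difference was -0.52 (SE 0.10), and -0.41 (SE 0.11) without 6 and 8 hours. At 24 to 72 hours it was -0.61 (adjusted p = 0.0206), a call.

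Tsf1 encodes transferrin, a secreted protein that binds iron. Its CF scores ran from 11.57 to 11.87 with a median of 11.71, and its SF scores from 10.31 to 11.55 with a median of 10.43, without overlap. The difference was -0.19 at 2 hours, -0.33 at 4 hours and -1.13 to -1.45 from 6 hours on. Its mean was -0.95 (SE 0.19), and -0.77 (SE 0.23) without 6 and 8 hours, because 12 and 18 hours showed differences of the same size. SF minus CF at 24 to 72 hours was -0.07 (adjusted p = 0.894), and the change between the windows, 0.88, did not pass (adjusted p = 0.351).

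Sodh1, a sorbitol dehydrogenase gene, also had no overlap, with CF scores of 11.12 to 11.69 (median 11.36) and SF scores of 10.09 to 11.04 (median 10.57). Its difference of -0.85 (SE 0.16) was -0.62 without 6 and 8 hours. The C-type lectin gene lectin-24A had the smallest unadjusted p of all probe sets. Its CF scores ran from 9.46 to 10.12 (median 9.76), its SF scores from 8.56 to 9.65 (median 8.88), and its difference was -0.80 (SE 0.10), or -0.71 without 6 and 8 hours. In RF minus CF it was -0.85 (adjusted p = 0.0426).

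The non-coding RNA CR42646 had the largest negative difference of this set, -1.28 (SE 0.30). Its differences were -0.73, -0.57, -2.88, -1.51, -0.60 and -1.36 from 2 to 18 hours, and the mean was -0.82 without 6 and 8 hours. No SF array reached a CF array, with 5.65 to 7.10 (median 6.72) against 7.33 to 8.53 (median 7.81). The aldose 1-epimerase gene CG32444 (-0.79, and -0.53 without 6 and 8 hours), the odorant-binding protein gene Obp99a (-0.66 and -0.40), smp-30 (-0.66 and -0.38), CG11594 (-0.73 and -0.47), CG3699 (-0.65 and -0.39) and kumpel (-0.63 and -0.38) were likewise smaller in size without these hours. CG31106 was at -0.73 and -0.57, and CG1774 at -0.57 and -0.41.

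Alp2, an alkaline phosphatase gene, had the largest positive difference of the leading set. Its CF scores ran from 8.35 to 9.53 with a median of 8.78, and its SF scores from 9.26 to 11.59 with a median of 10.36. The ranges overlapped, although SF was the higher array of the pair at every hour. The difference was 0.71 at 2 hours, 1.36 at 4 hours and 2.79 at 18 hours, with a mean of 1.49 (SE 0.27). Without 6 and 8 hours it was 1.40 (SE 0.36). RF minus CF was 1.86 (adjusted p = 0.00438), and SF minus CF at 24 to 72 hours was 2.32 (adjusted p = 4.95e-04).

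The other leading genes on the high side had smaller differences. MtnB, which encodes a metal-binding metallothionein, had its largest values at the first hours, with 1.02 at 2 hours and 0.88 at 4 hours against 0.08 at 8 hours. Its mean was 0.54 (SE 0.14), and 0.69 without 6 and 8 hours. Sirup, which encodes an assembly factor of respiratory complex II, differed by 0.41 (SE 0.09), and by 0.42 without 6 and 8 hours. CG41128 differed by only 0.27, and by 0.24 without 6 and 8 hours. Its groups did not overlap, with SF scores of 11.39 to 11.64 (median 11.47) against CF scores of 11.03 to 11.36 (median 11.25). CG1698, CG32554, CG15019, CG11279, CkIIalpha-i3, CG13309 and CG34200 had differences of 0.23 to 0.41. Without 6 and 8 hours these were 0.19 to 0.32. CG13309 rose from 0.24 to 0.29, and the others were smaller.

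**Figure D3:**
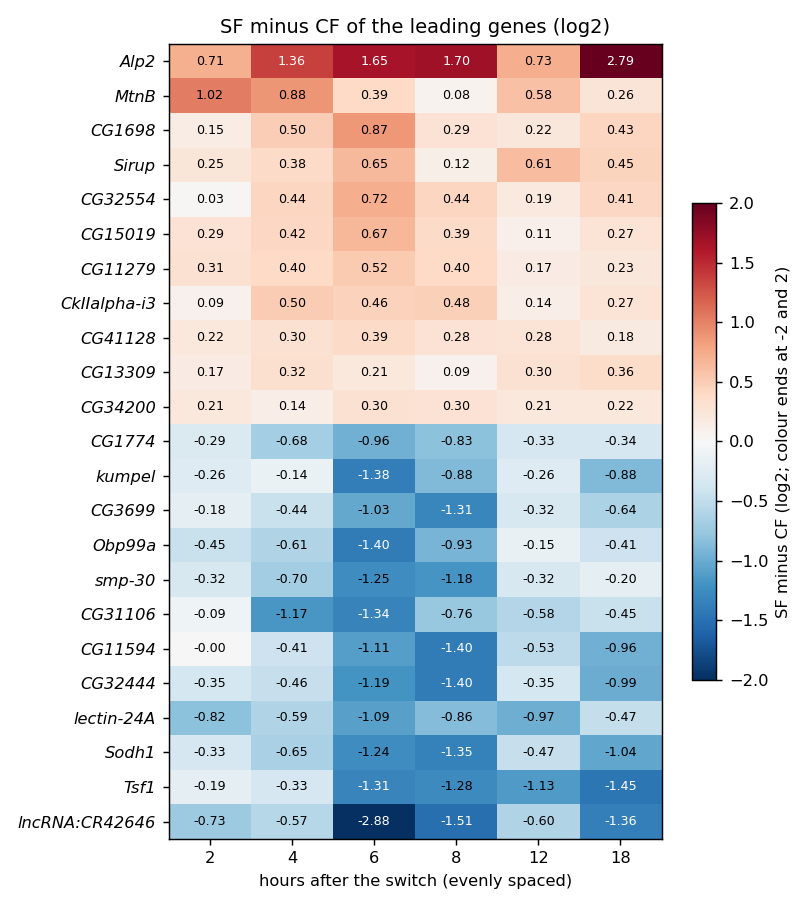
SF minus CF (colour and printed values, log2) at each hour (horizontal axis) for the 23 leading genes (vertical axis), ordered by their mean difference. Every cell of a gene has the same sign by the choice of genes, and the columns at 6 and 8 hours hold most of the values below -1.

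Of 8 tested alkaline phosphatase genes, 7 had a positive mean difference and 4 had an unadjusted p under 0.05 (2.55% of all probe sets did in this direction), while 0 were called. The study had already picked phu, Alp2, Alp9 and Alp10 as higher after the switch from a series that includes these arrays. The counts in this list are therefore a description and no independent support. The median difference of the 8 genes was 0.67, and 0.71 without 6 and 8 hours, beside 0.03 and 0.02 over all probe sets. From 2 to 18 hours this median was -0.06, 0.75, 0.88, 1.23, -0.08 and 1.91. The eggshell genes, which are markers of late egg follicles, had medians of -0.97, 0.20, 0.82, 1.52, -1.12 and 2.14 at the same hours. Both lists were thus below 0 at 2 and 12 hours and highest at 18 hours. With the eggshell level as a covariate Alp2 differed by 1.23 in place of 1.49, phu by 1.71 in place of 2.12 and Alp9 by 0.78 in place of 1.17. The part of egg content in the values of the list was not tested beyond this. At 24 to 72 hours 7 of the 8 were called higher, beside 0.998% of all probe sets in this direction. Of these, phu had no difference on the first pair and a wide one on the last. Its differences were -0.01, 0.39, 1.87, 2.15, 2.93 and 5.38 from 2 to 18 hours, with CF scores of 5.75 to 8.18 (median 6.68) and SF scores of 6.94 to 11.12 (median 8.81). Its mean of 2.12 (SE 0.66) and its value without 6 and 8 hours of 2.17 (SE 0.90) were close. The slope of the difference on log2 hours was 1.62 per doubling of time (SE 0.24, adjusted p = 0.739). The CF score of phu fell from 8.18 at 4 hours to 5.75 at 18 hours, while the SF score rose. The part of the CF fall in this slope was not tested. RF minus CF, without a change of diet, had a mean of 2.87 for phu (adjusted p = 0.0925). It was lowest at 4 hours, -0.12, and highest at 18 hours, 5.26. At 2 hours RF was well above CF, unlike SF. Alp9 differed by 1.17 (SE 0.39), with -0.41 at 2 hours and 2.65 at 18 hours, and by 0.97 without 6 and 8 hours.

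**Figure D4:**
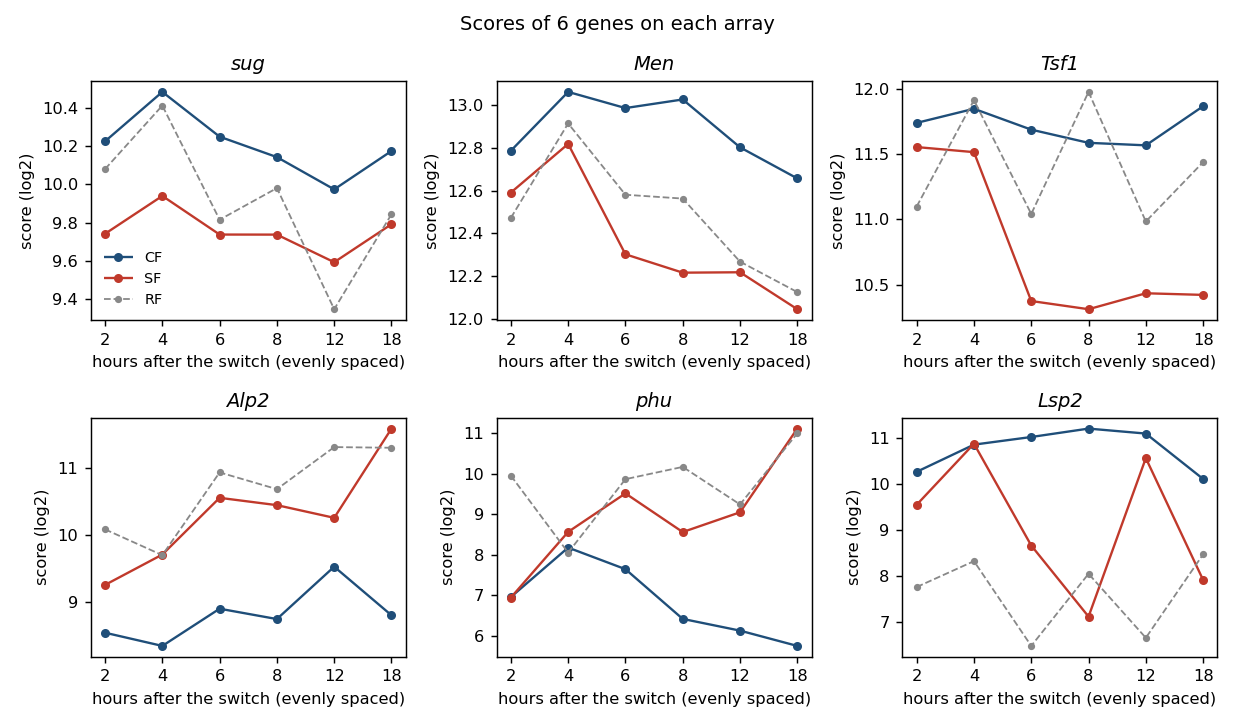
Log2 scores (vertical axes) of sug, Men, Tsf1, Alp2, phu and Lsp2 on the 6 arrays of each cohort (horizontal axes, hours evenly spaced), with 1 point per array. The SF line of sug lies below the CF line throughout, that of phu leaves it after 2 hours, and that of Lsp2 meets CF at 4 hours and stands at 7.12 at 8 hours.

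In the pentose phosphate pathway, the main source of NADPH, 3 of 5 tested genes had a negative difference at all 6 hours and an unadjusted p under 0.05, and 0 were called. Over all probe sets 1.52% were negative at all 6 hours and 2.62% were lower at this p. These 3 were transaldolase Taldo at -0.31 (SE 0.10), the 6-phosphogluconolactonase gene Pgls at -0.28 (SE 0.08) and the transketolase gene CG8036 at -0.25 (SE 0.07). The study had already reported these 3 enzymes as lower on restricted food from a series that includes these arrays. The count of 3 is therefore a description and no independent support. CG8036 depended least on 6 and 8 hours, with -0.21 without them, against -0.18 for Taldo and -0.17 for Pgls. The other 2, Rpi and Rpe, had positive means, of which the higher was 0.16. The median of the list went from -0.25 to -0.17, and was -0.18 with each array centred on its median.

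Among 14 genes of glycolysis and gluconeogenesis, 12 had a negative mean and 3 of these an unadjusted p under 0.05, beside 4130 of 9420 and 2.62% over all probe sets. The list's median was small, at -0.10, and was -0.09 without 6 and 8 hours and -0.03 with each array centred. Pepck1, which makes the gluconeogenic enzyme PEPCK, scored 13.21 to 13.69 in SF (median 13.46) and 13.67 to 13.96 in CF (median 13.80). The groups overlapped only at the edge. Its difference was -0.36 (SE 0.09), and -0.25 without 6 and 8 hours. Pepck2 (-0.61, SE 0.22) and the fructose-1,6-bisphosphatase gene fbp (-0.34, SE 0.12) shrank more, to -0.37 and -0.16. Of 8 genes of glycogen and trehalose metabolism, 5 had a negative mean and 3 a positive one. Their median of -0.05 turned to 0.02 without 6 and 8 hours and also with each array centred. Of 12 maltase and amylase genes 7 had a negative mean, with a median of -0.05 that was -0.16 without 6 and 8 hours and 0.02 with each array centred. In the glycogen and trehalose list 2 genes had an unadjusted p under 0.05. The phosphoglucomutase gene Pgm1 differed by -0.26 (SE 0.08) with the same sign at all 6 hours and by -0.21 without 6 and 8 hours, and the UDP-glucose pyrophosphorylase gene UGP by -0.58 (SE 0.17) and -0.28.

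Among 13 genes for the synthesis of fatty acids and triglycerides, 10 had a negative mean, 4 of them at all 6 hours. Over all probe sets 4130 of 9420 had a negative mean and 1.52% were negative at all 6 hours. The list's median was -0.14, and -0.07 both without 6 and 8 hours and with each array centred. Besides Men these included ACC, the gene of acetyl-CoA carboxylase, at -0.33 (SE 0.10) and the fatty acid synthase gene FASN1 at -0.30 (SE 0.09). Without 6 and 8 hours they were at -0.19 and -0.17. RF minus CF was 0.02 for ACC and -0.05 for FASN1 (adjusted p = 0.970 and 0.884).

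Of 16 genes of beta-oxidation, 11 had a negative mean, and their median was -0.06 (-0.04 without 6 and 8 hours and 0.01 with each array centred). Of 10 genes for lipases and lipid storage, 6 had a positive mean, and their median of 0.03 was -0.03 without 6 and 8 hours. The acyl-CoA dehydrogenase gene CG3902, of beta-oxidation, was lower on every SF array (11.63 to 12.06, median 11.95) than on any CF array (12.07 to 12.49, median 12.20). The highest SF score, 12.064, and the lowest CF score, 12.065, were nearly equal. The difference of CG3902, -0.35 (SE 0.12), was -0.15 without 6 and 8 hours. The perilipin gene Lsd-1, whose product coats lipid droplets, differed by -0.53 (SE 0.17) and by -0.26 without them. The lipase gene bmm was at -0.15 (SE 0.08). Jabba, a lipid droplet gene, had probe sets of opposite sign, at 0.15 and -0.34.

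The list of sugar-sensing and nutrient factors, which includes sug, had 8 of 10 genes with a negative mean and 2 with a positive one. Over all probe sets 4130 of 9420 had a negative mean. The list's median was -0.12, and -0.09 without 6 and 8 hours and -0.05 with each array centred. Of the other sugar-responsive regulators, cabut (cbt) was at -0.24 (SE 0.10), and -0.12 without 6 and 8 hours, and Mondo at -0.15 (SE 0.07). On the positive side, klu was at 0.06. The TGF-beta ligand gene daw was at -0.33 (SE 0.14), and -0.13 without 6 and 8 hours. The insulin and FOXO pathway list had 7 of 13 genes with a positive mean and 6 with a negative one. Its median was 0.02, and 0.04 without 6 and 8 hours. In this list, the brain insulin-like peptide gene Ilp5 scored 6.13 to 7.92 in SF (median 7.31) and 7.61 to 8.29 in CF (median 7.96). These overlapped, and its difference of -0.72 (SE 0.25) was -0.36 without 6 and 8 hours. Ilp5 was -1.38 in RF minus CF (adjusted p = 0.00923) and -0.66 in SF at 24 to 72 hours (adjusted p = 0.0097). Ilp2 was at -0.50 (SE 0.27), of which -0.12 was left without 6 and 8 hours. Both genes are expressed in neurons, and the neuron markers had a median of -0.31 over all 6 hours and 0.13 without 6 and 8 hours. The neuron median was -0.10 in RF minus CF and 0.19 in SF minus CF at 24 to 72 hours. The part of tissue content in the Ilp5 and Ilp2 values was not tested. ImpL2, whose product binds insulin-like peptides, was at -0.37 (SE 0.11), and -0.32 without these hours. The receptor gene InR (0.02, SE 0.19) and foxo (-0.05, SE 0.14) were near 0.

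Storage and yolk proteins showed how much 2 arrays weighed. Lsp2, a larval serum protein gene, differed by -0.72, 0.02, -2.35, -4.08, -0.53 and -2.19 from 2 to 18 hours. SF scores ran from 7.12 to 10.87 (median 9.11) and CF scores from 10.11 to 11.20 (median 10.94), with overlap. The mean of -1.64 (SE 0.52) was -0.86 (SE 0.35) without 6 and 8 hours. RF minus CF was -3.13 (adjusted p = 0.0221), and SF minus CF at 24 to 72 hours was -2.70 (adjusted p = 0.00248). The yolk protein gene Yp2 was lower on every SF array (14.54 to 14.78, median 14.73) than on the CF arrays (14.78 to 14.95, median 14.87), by -0.17 (SE 0.07). The highest SF score, 14.776, and the lowest CF score, 14.780, were nearly equal. Without 6 and 8 hours Yp2 differed by -0.11 (SE 0.07). Its scores lie near the top of the scale.

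Some lists had medians that were nearer to 0, or of the other sign, without 6 and 8 hours. All 13 eggshell genes had a positive mean, with a median of 0.46 that was 0.06 without these hours. From 2 to 18 hours the median of this list was -0.97, 0.20, 0.82, 1.52, -1.12 and 2.14. It was thus highest at 18 hours, and the remaining 4 hours held values of opposite sign. With 1 hour left out at a time it ran from 0.13 to 0.77. All 14 ribosome biogenesis genes had a positive mean too, with a median of 0.24 that was 0.05 without 6 and 8 hours. By hour this median was -0.14, 0.11, 0.49, 0.59, -0.07 and 0.39, again with opposite signs among the other 4 hours. Nopp140, a nucleolar protein gene, differed by 0.41 (SE 0.15), and by 0.22 without 6 and 8 hours. Amino acid breakdown genes went from -0.18 to 0.01, cytochrome P450 genes from -0.12 to 0.02 and flight muscle genes from -0.16 to 0.23. Of 31 lists, 14 had a median whose sign turned when these hours were left out. Alkaline phosphatases, the pentose phosphate pathway, glycolysis and gluconeogenesis and the sugar-sensing factors were among those that did not turn.

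**Figure D5:**
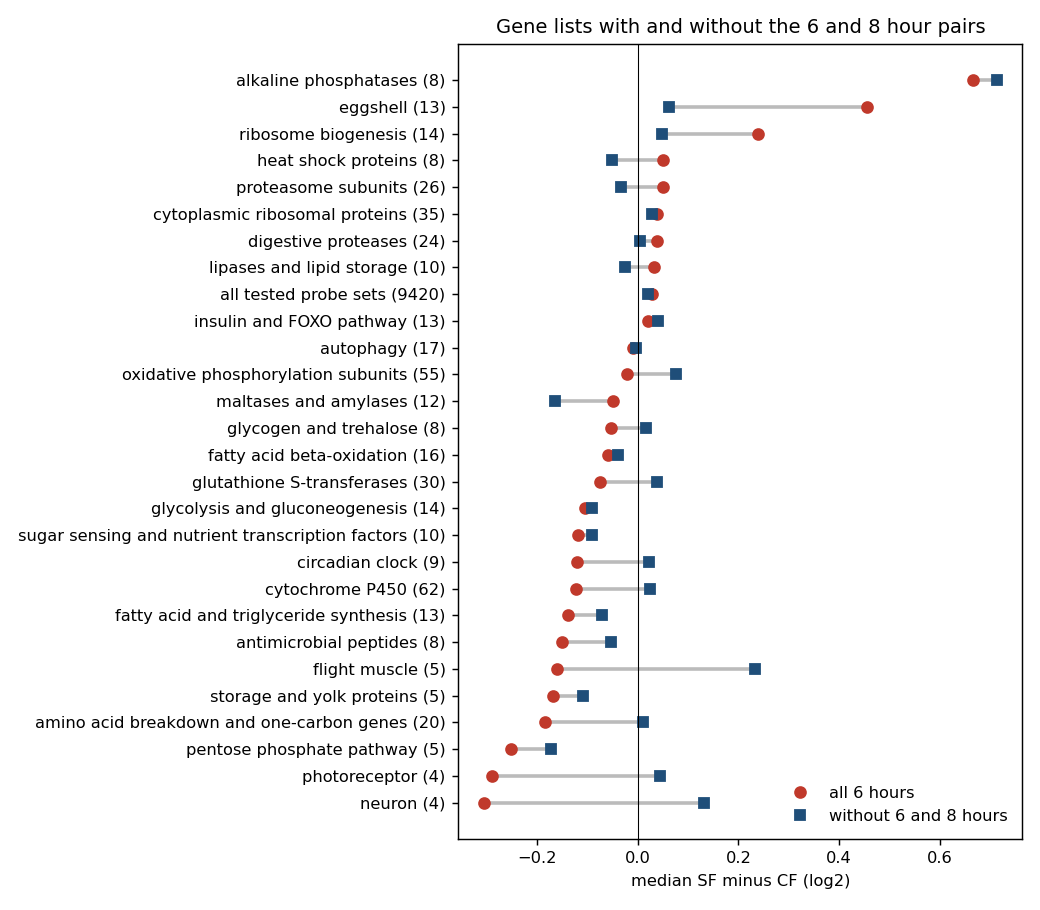
Median SF minus CF (horizontal axis, log2) of each gene list (vertical axis, number of genes tested in brackets) over all 6 hours (circles) and without 6 and 8 hours (squares). Alkaline phosphatases stay at 0.67 and 0.71, while eggshell genes go from 0.46 to 0.06 and neuron genes from -0.31 to 0.13.

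At the first 2 hours sampled, few probe sets differed by at least 1 at both, 5 higher in SF (0.0531%) and 6 lower (0.0637%). The immune gene edin (1.85 and 3.17 at 2 and 4 hours), the odorant-binding protein gene Obp99b (1.56 and 1.64) and the splicing regulator gene Psi (1.40 and 1.32) were among the higher ones. None of them stayed so, since edin was -2.68 at 8 hours, Obp99b -2.52 and Psi -0.59. Among the lower ones, Glut4EF was at -2.08 and -2.04 and then at 1.92 at 12 hours.

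Some genes had large values at 6 and 8 hours and a mean near 0 at the other hours, and were chosen for this. On the high side these were Muc12Ea, a mucin gene, with 2.72 and 5.58, the eggshell gene Femcoat with 1.11 and 4.81, and CG31928 with 1.42 and 4.81. On the low side, Lsp1beta, another larval serum protein gene, had -1.89 and -3.21, jef -1.56 and -1.93, and Con, which encodes the cell adhesion protein connectin, -0.98 and -2.42. For nur the 6 hour value of -4.32 came from the CF array, which scored 10.36 while all SF arrays scored 5.72 to 6.24.

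No slope on log2 hours passed within the first 18 hours (0 of 9420 by limma, 379 at an unadjusted p under 0.05, 4.02%). Between the early and the late window 1 probe set was called (0.0106%, and 1334 at an unadjusted p under 0.05, 14.2%). This was CG11425, which was at -0.39 (SE 0.23) at 2 to 18 hours and at 2.02 at 24 to 72 hours, a change of 2.41 (adjusted p = 0.0171). The call ended without 4, 6 or 12 hours (adjusted p = 0.0566, 0.0741 and 0.0705), where the change was 2.28, 2.33 and 2.40, and without both 6 and 8 hours, where the change was 2.20 (adjusted p = 0.0903).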

How the data were processed

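The platform was the Affymetrix Drosophila 2.0 array, with 1 array for each cohort and hour. The deposited log2 scores were made by the authors by quantile normalization and RMA summary of each probe set. The methods also name a PVAC filter, yet all 18952 probe sets are in the table, and versions are not given in the sources used here. The 183 array controls were left out, and the 9420 probe sets whose mean over the 36 arrays at 2 to 72 hours reached 6 were tested. SF and CF arrays were paired by the hour in their titles, as in the methods, and the 6 differences were fitted in limma 3.58.1 (R 4.3.3) with Benjamini-Hochberg adjustment over all tested probe sets. The slope on log2 hours was fitted on these pairs, and the late against the early window on 12 pairs. The fits were tested on simulated data. Genes come from the platform annotation, with symbols updated through RefSeq (13543 of 13646 matched). A further 53 probe sets were named from the study's supplementary tables, which mostly hold genes that study selected. In all 13699 probe sets had 1 gene, 402 had several and 4668 had none and were not named. Ilp6 and Thor were not analysed here.

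Named genes were those with an unadjusted p under 0.01 and 1 sign at all 6 hours (largest first, up to 12 a side), the leading members of each list, a fixed set, genes with large differences at 2 and 4 or at 6 and 8 hours, and the lowest p for slope and window. Genes in lists were read from the probe set with the highest mean score. Members and lists were chosen with earlier results of these data known. Alternatives left out each hour or both 6 and 8 hours, dropped the pairing, changed the filter, centring, variance model or adjustment, weighted the arrays or added the eggshell mean as a covariate. The number of arrays limits the precision.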

Additional observations from a re-analysis of the deposited data

Results flagged for a closer look

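The lowest of 6 hourly differences lay far from the others, by Dixon's criterion for 6 values, in 3 of 153 sets checked. These were CG8036 at 6 hours (-0.43), Mondo at 4 hours (-0.38) and nur at 6 hours (-4.32). The sets are not independent and many were chosen for their differences, so no chance rate is set beside this count. For nur the CF array was the one apart.

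The change between windows in CG11425, 2.41, differed from 0 by limma (adjusted p = 0.0171). In a few genes every early difference had one sign and every late difference the other. CG12934 had a late mean of 0.20 against -0.50 early, and the change did not pass limma's test (adjusted p = 0.205). CG7737 had a late mean of -0.29 against 0.43, and CG4593 one of -0.22 against 0.27, and neither change passed (adjusted p = 0.351 for both).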

How the results depend on the processing

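The count of 0 calls in SF minus CF at 2 to 18 hours held under all 17 alternatives. Without the pairing by hour 0 were called as well (906 at an unadjusted p under 0.05), so the pairing changed no call. The unadjusted count ran from 180 without 6 hours to 1624 without 2 hours, was 232 without 6 and 8 hours, 264 without 4, 286 without 8 and 262 without 18 hours, 1361 with the spread shared with 24 to 72 hours and 14 with a trended, robust variance. Centring each array on its median moved the median difference of all probe sets from 0.03 to 0.10 and the unadjusted split to 329 higher and 157 lower. The single call between windows ran from 0 to 1 when 1 hour was left out. It ended without 4, 6 or 12 hours (adjusted p = 0.0566, 0.0741 and 0.0705), and 0 were called without 6 and 8 hours. Of 89 tested gene differences, 84 kept their sign throughout and 0 passed. Many of these genes were chosen for 1 sign at all 6 hours or for a low unadjusted p. Their kept signs are therefore a description only. The cause of the sign changes in the other genes was not tested. Without 6 and 8 hours fln was 0.28, foxo 0.064 and Jabba -0.12, and with array weights 0.063, 0.040 and -0.042. Centring gave foxo 0.023, and the eggshell covariate gave foxo 0.075 and Jabba -0.017. With 1 hour left out, klu ran from -0.045 to 0.23, InR from -0.10 to 0.17, foxo from -0.14 to 0.059 and Jabba from -0.0080 to 0.29. Among genes described without a test, CG31267 (-0.038), Con (0.051), Muc12Ea (-0.20) and edin (0.39) turned without 6 and 8 hours. Edin also turned with array weights (0.84), the eggshell covariate (0.56) and centring (0.028), and ran from -0.68 to 0.57 with 1 hour left out, Obp99b from -0.025 to 0.81 and CG6337 from -0.77 to 0.10.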

Other observations

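Other genes with wide early differences lay outside the lists led with above. The antimicrobial peptide gene CecB went from 1.24 at 2 hours to -2.02 at 4 hours and -3.21 at 8 hours, with a mean of -1.02 (SE 0.56). At 8 hours CecB had its highest CF score, 10.80, and RF minus CF was -3.68. The heat shock gene Hsp68 was at -1.74 and -2.19 at 4 and 6 hours and at 0.46 at 12 hours. Its CF scores were highest at 4 and 6 hours, 8.75 and 8.91, and RF minus CF was then -1.88 and -2.07. These wide values were thus seen in RF against the same CF arrays as well. The clock photoreceptor gene cry was at -0.96 and -1.02 at 6 and 8 hours and at -0.65 at 18 hours. CG4757 had the steepest negative slope of those named, from 0.90 at 2 hours to -2.45 at 18 hours (slope -1.11, SE 0.16, adjusted p = 0.739 by limma).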
